A study of Mus musculus with 6 samples.

Results

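Sterol and fatty acid synthesis genes were followed in a pair of mouse bone marrow progenitor populations sorted by flow cytometry. The set holds 34 genes listed by what their products do: 18 enzymes of cholesterol synthesis, 6 genes of sterol sensing and SREBP regulation, and 10 enzymes of fatty acid synthesis, elongation and desaturation. Of these, 33 had a row in the read count table of 22271 genes, and all 33 passed the filter on low counts, as did 12850 genes in all. Hmgcs1, the synthase that makes HMG-CoA, had no matching row and was not analysed here.

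The populations were labelled CD27 low MOP and CD27 high MODP, with 3 libraries each, all from C57BL/6JRj mice. All library titles carry the label WT, read here as wild type. CD27, on which the sort rests, belongs to the TNF receptors. By the study's title, a progenitor of macrophages and osteoclasts arises from one that can also form dendritic cells, and the comparison sets the later MOP against the earlier MODP. The sources used here give neither the age and sex of the mice nor whether each library had its own animals or a pool. The p-values therefore cover the variation seen among 3 libraries per group, part of which may be technical. In bulk RNA of a sorted population, fewer cells of a type and less RNA per cell cannot be told apart.

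Cholesterol is built from acetyl-CoA through mevalonate, isoprenoids, squalene and lanosterol. Fatty acids are built from the same acetyl-CoA by acetyl-CoA carboxylase and fatty acid synthase and are then elongated and desaturated. Both routes are driven by the SREBP transcription factors, which the escort protein SCAP carries from the endoplasmic reticulum to the Golgi for cleavage when membrane sterol is low, and which INSIG proteins hold back when sterol is high. Growing progenitors need both products for new membrane, and mature macrophages also take up and store sterol.

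Libraries held 13338577 to 15892640 counts in MOP and 10701425 to 13846749 counts in MODP. Cd27 stood at 3.52 to 4.57 CPM (counts per 1000000, scaled by edgeR's TMM factors) in MOP and 35.4 to 38.9 CPM in MODP, as the sort labels state. The progenitor genes Kit, Flt3 and Cd34 were lower in MOP, and Csf1r and Ly6c2 were higher. Other cell types' markers were also present. The 8 basophil and mast cell markers summed to 3152 to 5001 CPM in MOP and 513 to 1086 CPM in MODP, and 7 of the 8 were higher in MOP. The 9 T and NK cell markers summed to 69.95 to 112 CPM in MOP and 238 to 307 CPM in MODP, and 6 of the 9 were lower in MOP. Nkg7 alone made up most of that sum, at 65.0 to 99.3 CPM in MOP and 204 to 240 CPM in MODP. The 9 erythroid and megakaryocyte markers summed to 358 to 456 CPM in MOP and 124 to 456 CPM in MODP. Of 7 tested, 3 were higher in MOP. Replicate 2 of each group stood apart: its late neutrophil markers summed to 11642 CPM in MOP and 16696 CPM in MODP, against 2792 and 4965 CPM in the other MOP libraries and 2161 and 3573 CPM in the other MODP libraries. The 8 stromal and endothelial markers summed to 3245 CPM in MODP replicate 2, against 174.5 to 549.7 CPM in the other libraries. Col1a1 and Col1a2 made up most of that 3245 CPM, at 1727 and 1356 CPM. Of the others, Vwf was also highest there, at 27.1 CPM, and Cxcl12, Lepr, Pecam1, Cdh5 and Kdr were not. The fat cell markers Adipoq, Plin1, Plin4, Retn and Cfd stayed between 0 and 1.79 CPM, and Lipe, which many cells express, made up most of that list's sum of 29.8 to 32.4 CPM in MOP and 28.9 to 29.5 CPM in MODP. The part of these marker differences in the results below was not tested.

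The set as a whole did not move one way. With p-values from edgeR's quasi-likelihood test, adjusted over all 12850 genes after Benjamini and Hochberg, 5 of the 33 members were higher in MOP (Acss2, Mvd, Fads1, Ebp and Srebf1), 4 were lower (Scd2, Elovl5, Scap and Acaca) and 24 did not pass the threshold of 0.05. That is 27.3% of members past the threshold, against 31.2% of all tested genes, and the share of members is close to the background. The median log2 fold change was 0.03 over members and -0.0075 over all tested genes. In all, 2095 genes were higher and 1913 lower in MOP, and with upper-quartile scaling 1692 were higher and 2452 lower. That scaling turned the balance among members to 2 higher (Acss2 and Mvd) and 6 lower (Sqle, Scap, Fasn, Acaca, Scd2 and Elovl5), beside 32.2% of all tested genes called either way. Of the members, 29 of 33 (87.9%) lay within 0.5 of 0 on the log2 scale, as did 76.9% of all tested genes. MOP and MODP libraries were fully apart for 13 members (39.4%), against 47.6% of all tested genes.

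**Figure D1:**
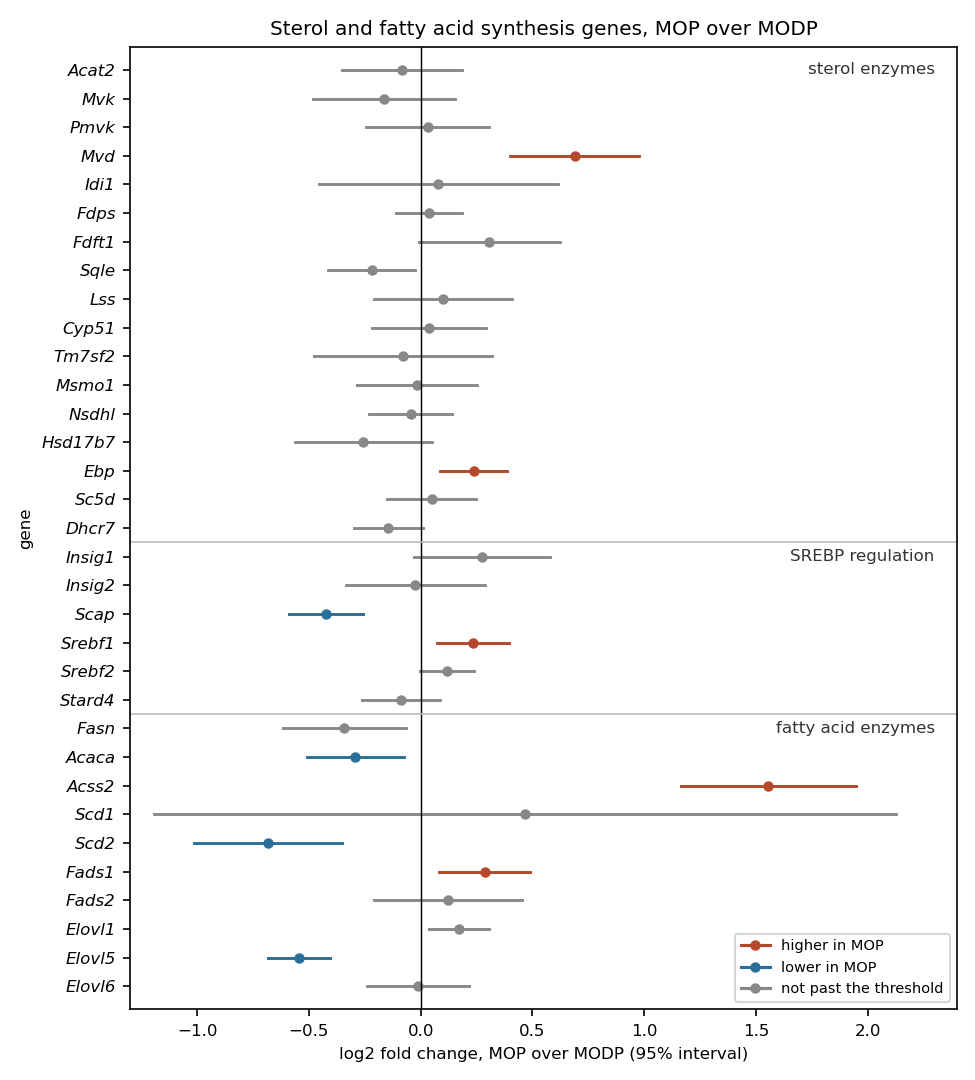
Log2 fold change of MOP over MODP with its 95% interval for the 33 measured members, grouped by role from top to bottom; colours mark genes higher in MOP, lower in MOP or not past the threshold. Acss2 lies farthest to the right at 1.56 and Scd2 farthest to the left at -0.68, and most sterol enzymes sit close to 0.

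The libraries carry numbers in the table's column names, and same-numbered libraries deviated together from their group means, so they were taken as pairs. With that number as a replicate block, 14 of the 33 members (42.4%) were past the threshold, 8 higher and 6 lower, against 41.0% of all tested genes. The 5 added members were Fdft1, Insig1 and Elovl1 (higher) and Sqle and Fasn (lower). The titles number the libraries otherwise, and with the title number as block 6 members were higher and 5 lower, beside 37.6% of all tested genes. Of the added members, Fasn and Elovl1 then still passed, and Fdft1, Sqle and Insig1 did not (edgeR adjusted p = 0.088, 0.069 and 0.17). The 9 called without a block stayed past the threshold with either block. Acss2, Mvd, Scap and Elovl5 passed the threshold in all 13 alternative fits, and Scd2 in 12 of the 13, all but the fit without MOP replicate 1 (edgeR adjusted p = 0.055). Without replicate 2 of both groups, Srebf1, Acaca and Fads1 no longer passed and Fasn did, so that 3 members were higher and 4 lower, beside 2361 higher and 2001 lower genes in all (33.9% called).

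Among called members with 1 promoter in the RefSeq table, those of the 3 with the largest differences are shown because these genes are classed with the SREBP targets yet moved in opposite directions. RefSeq promoters (GRCm38.p6) were found for 27 of the 34 members. The 250 bases before the start are given 5′ to 3′ on the gene's strand for Acss2 (chr2:155517793-155518042, plus strand), Mvd (chr8:122443423-122443672, minus strand) and Elovl5 (chr9:77917115-77917364, plus strand). Capitals mark the NF-Y box CCAAT, the GC box GGGCGG and the E-box CACGTG on either strand.
Acss2: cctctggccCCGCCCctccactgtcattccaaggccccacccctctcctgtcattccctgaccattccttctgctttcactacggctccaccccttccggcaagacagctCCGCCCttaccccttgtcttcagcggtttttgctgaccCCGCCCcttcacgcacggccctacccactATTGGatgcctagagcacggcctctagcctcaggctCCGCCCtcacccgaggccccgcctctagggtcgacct
Mvd: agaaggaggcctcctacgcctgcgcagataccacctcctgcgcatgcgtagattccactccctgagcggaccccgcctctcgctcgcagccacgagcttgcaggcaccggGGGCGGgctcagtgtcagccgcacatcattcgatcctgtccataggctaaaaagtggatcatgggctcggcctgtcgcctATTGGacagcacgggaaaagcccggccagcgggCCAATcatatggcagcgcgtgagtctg
Elovl5: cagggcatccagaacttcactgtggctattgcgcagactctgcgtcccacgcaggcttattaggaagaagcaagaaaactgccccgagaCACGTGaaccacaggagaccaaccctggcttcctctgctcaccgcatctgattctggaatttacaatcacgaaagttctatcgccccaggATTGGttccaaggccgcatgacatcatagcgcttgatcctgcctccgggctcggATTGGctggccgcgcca
NF-Y and Sp1, which bind the CCAAT and GC boxes, are known partners of SREBP at its targets. The Acss2 window held 4 GC boxes and 1 CCAAT box, that of Mvd held 1 GC box and 2 CCAAT boxes, and that of Elovl5 held 2 CCAAT boxes, 1 E-box and no GC box. Of 36 member promoters 63.9% held CCAAT, 72.2% held GGGCGG and 16.7% held CACGTG, against 33.9%, 32.7% and 6.02% of all 32851 promoters of that length. The 36 promoters belong to 27 members, with the unmeasured Hmgcs1 among them. The promoters of all genes were not filtered by expression, and shares among expressed genes alone were not computed. The sterol regulatory element, searched as TCACNCCAC on both strands, was matched in 1.05% of all promoters and, among members, in that of Hmgcs1 alone. A shorter form, CACNCCAC, chosen after the first result was seen, was in 8.33% of member promoters and 5.29% of all. The letters of a match describe the window and do not show a bound site.

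Cholesterol synthesis enzymes were nearly level between the populations. Of 17 tested, 2 were higher in MOP (11.8%, against 16.3% of all tested genes), 0 were lower (against 14.9%) and 15 did not pass. At an unadjusted p under 0.05, Sqle was lower as well, and DESeq2 called 0 lower. For each of the 15 the 95% interval of the log2 fold change lay within 1 of 0, and for 12 of them within 0.5. The exceptions at 0.5 were Idi1, Fdft1 and Hsd17b7. CPM summed over the 17 enzymes was 372, 374 and 383 in MOP and 371, 366 and 365 in MODP. The libraries did not overlap, but the ratio of the group means was log2 0.036, and it became -0.018 with upper-quartile scaling and -0.0052 with totals alone.

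Mvd (ENSMUSG00000006517), the decarboxylase that turns mevalonate diphosphate into isopentenyl diphosphate, was at 18.1, 16.5 and 18.0 CPM in MOP and at 11.3, 12.0 and 9.28 CPM in MODP. Every MOP library was above every MODP library, and all 3 pairs had the higher value in MOP. The log2 fold change was 0.69 ± 0.13 (SE), or 1.61-fold higher in MOP (edgeR adjusted p = 0.0047). Reads behind it numbered 237 to 257 per MOP library and 128 to 138 per MODP library.

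Ebp (ENSMUSG00000031168), the sterol isomerase that shifts a double bond of the ring late in the route, was at 54.0, 57.2 and 59.7 CPM in MOP and at 47.5, 49.7 and 47.9 CPM in MODP. The groups did not overlap, and the difference was 1.18-fold (log2 0.24 ± 0.07, SE, edgeR adjusted p = 0.026). The call was lost with upper-quartile scaling and without MOP replicate 2 or 3 or MODP replicate 1 or 3 (edgeR or DESeq2 adjusted p 0.015 to 0.089 over the alternatives).

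The other early enzymes did not pass the test. Acat2, the cytosolic thiolase of the first step, averaged 16.4 ± 1.06 CPM in MOP and 17.3 ± 2.19 CPM in MODP (SD, n = 3 each), and is uncertain because 50.5% of its 31-mers also occur in other genes, chiefly Acat3. The kinases Mvk and Pmvk act in turn on mevalonate and its phosphate. Mvk averaged 12.3 ± 1.22 CPM in MOP and 13.7 ± 1.93 CPM in MODP, and Pmvk 13.6 ± 0.208 and 13.3 ± 1.68 CPM in the same order. Idi1, the isomerase after Mvd, was the lowest member per read, at 2.56 to 3.94 CPM in MOP and 2.92 to 3.16 CPM in MODP. Of these steps around mevalonate, Mvd alone passed the threshold, and whether its difference exceeds those of its neighbours was not tested.

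Fdps (ENSMUSG00000059743), which makes farnesyl diphosphate, the branch point to sterols and to prenylated proteins, stood at 54.9, 55.4 and 57.0 CPM in MOP and at 57.5, 52.7 and 52.8 CPM in MODP. The groups overlapped, and the 95% interval of the log2 fold change ran from -0.11 to 0.18. Fdft1, the squalene synthase that commits farnesyl diphosphate to sterols, was at 19.7, 18.4 and 15.9 CPM in MOP and 14.9, 16.6 and 12.3 CPM in MODP. Its groups overlapped, and the difference was log2 0.31 ± 0.14 (SE, edgeR adjusted p = 0.13), or an adjusted p of 0.039 with the replicate block. A share of 18.3% of its exon bases overlaps exons of Ctsb on the other strand, and whether counting used strand is not stated in those sources.

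Sqle (ENSMUSG00000022351), the squalene epoxidase and a rate-limiting step, stood at 25.9, 30.4 and 28.6 CPM in MOP and at 31.8, 32.6 and 34.4 CPM in MODP. All MOP libraries were below all MODP libraries, by a log2 fold change of -0.22 ± 0.09 (SE, edgeR adjusted p = 0.085), or an adjusted p of 0.047 with the replicate block. Lss, which closes the ring to lanosterol, averaged 14.2 ± 1.31 CPM in MOP and 13.2 ± 1.75 CPM in MODP. Fdft1 and Sqle, which follow each other in the route, thus had estimates of opposite sign.

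The enzymes that turn lanosterol into cholesterol, other than Ebp, did not pass the test, with log2 fold changes from -0.26 (Hsd17b7, a ketoreductase) to 0.05 (Sc5d, a desaturase). Cyp51, the lanosterol demethylase, averaged 28.9 ± 2.00 CPM in MOP and 28.1 ± 3.87 CPM in MODP. Msmo1 and Nsdhl, which remove the methyl groups, and the reductase gene Tm7sf2 had log2 fold changes of -0.02, -0.05 and -0.08. Dhcr7 (ENSMUSG00000058454), the reductase of the last double bond, stood at 33.3, 34.6 and 35.6 CPM in MOP and at 38.6, 37.3 and 38.4 CPM in MODP. The groups were apart for Dhcr7 too, with an estimate of log2 -0.15 ± 0.07 (SE) that missed the threshold (edgeR adjusted p = 0.14).

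**Figure D2:**
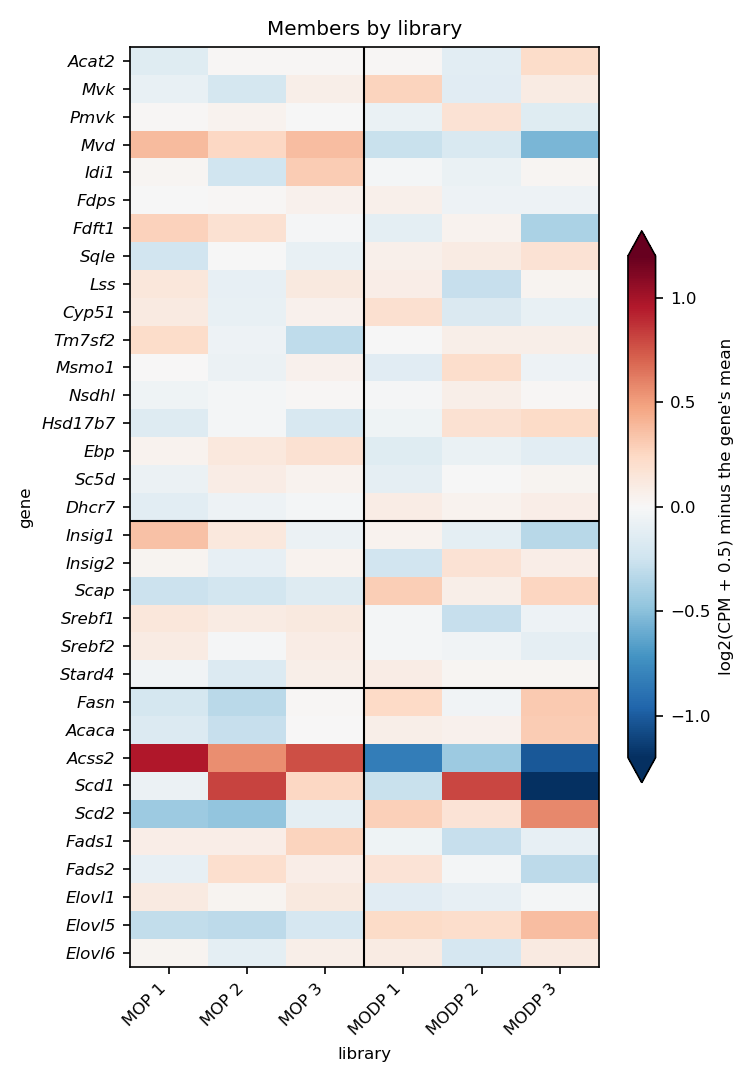
Log2(CPM + 0.5) minus the gene's mean over the 6 libraries, for the 33 measured members (rows, by role) in MOP and MODP libraries (columns); red is above and blue below the gene's mean, and values past the ends of the scale take the end colour. Acss2 and Mvd are red in the 3 MOP libraries and blue in the 3 MODP libraries, Scd2, Elovl5 and Scap the reverse, and Scd1 is reddest in replicate 2 of each group.

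Among the genes that sense sterol and control SREBP, 1 of 6 passed as higher in MOP, 1 as lower and 4 on neither side (33.3%, near the 31.2% of all tested genes), with a median log2 fold change of 0.05. Scap (ENSMUSG00000032485), the escort protein of SREBP, stood at 78.9, 80.9 and 84.6 CPM in MOP and at 116, 98.8 and 113 CPM in MODP. Every MOP library was below every MODP library, and the log2 fold change was -0.42 ± 0.07 (SE), or 1.34-fold lower in MOP (edgeR adjusted p = 0.0034). The transcript 5830462I19Rik overlaps 13.2% of its exon bases on the other strand and was counted at 0.733 CPM on average in MOP and 1.34 CPM in MODP.

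Srebf1 (ENSMUSG00000020538), whose products favour fatty acid genes, stood at 129.7, 126 and 128 CPM in MOP and at 116, 97.3 and 113 CPM in MODP. The groups did not overlap, and Srebf1 was 1.18-fold higher in MOP (log2 0.23 ± 0.07, SE, edgeR adjusted p = 0.036). That call was lost with upper-quartile scaling, without any 1 of the MOP libraries, without MODP library 3 and when replicate 2 was left out of both groups (edgeR or DESeq2 adjusted p 0.0098 to 0.12 over the alternatives). Srebf2 (ENSMUSG00000022463), which favours cholesterol genes, stood at 173, 161 and 172 CPM in MOP and at 159, 157 and 150.1 CPM in MODP. Its libraries did not overlap either, and its log2 fold change of 0.12 ± 0.05 (SE) stayed short of the threshold (edgeR adjusted p = 0.13). Both genes were thus expressed in each population at levels that differed between the groups by less than a log2 value of 0.5, with 95% intervals of 0.07 to 0.40 for Srebf1 and -0.00 to 0.24 for Srebf2.

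Insig1 (ENSMUSG00000045294), itself an SREBP target that retains SCAP, stood at 66.4, 56.5 and 49.2 CPM in MOP and at 53.4, 47.9 and 41.2 CPM in MODP. The groups overlapped, and MOP was higher in all 3 pairs, by log2 0.31, 0.24 and 0.26. Its log2 fold change of 0.27 ± 0.13 (SE) had an edgeR adjusted p of 0.15, or 0.0070 with the replicate block. All 3 pairs were also higher in MOP for Lss and Sc5d, whose log2 fold changes were only 0.10 and 0.05. The share of all tested genes with such agreement is not given here, so agreement of 3 pairs alone is weak evidence. Insig2, the paralog that does not need SREBP for its expression, stood at 13.0, 11.8 and 13.0 CPM in MOP and at 10.7, 14.3 and 13.4 CPM in MODP, with a log2 fold change of -0.02 ± 0.14 (SE). Stard4, a carrier that moves cholesterol between membranes, stood at 45.2, 41.4 and 48.7 CPM in MOP and at 49.4, 47.1 and 47.2 CPM in MODP, and the groups overlapped (log2 -0.09 ± 0.08, SE).

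Fatty acid enzymes passed in both directions. Of 10, 2 were higher in MOP (20%, against 16.3% of all tested genes), 3 were lower (30%, against 14.9%) and 5 did not pass. Without MOP replicate 1, 1 was higher (Acss2) and 1 was lower (Elovl5). CPM summed over the 10 was 932, 888 and 1054 in MOP and 1180.0, 1082 and 1305 in MODP, so every MOP library was below every MODP library. The log2 ratio of the group means was -0.31, and most of the sum came from Fasn, Scd2, Elovl5 and Acaca.

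Acss2 (ENSMUSG00000027605), the cytosolic and nuclear enzyme that makes acetyl-CoA from acetate, stood at 47.0, 35.5 and 41.1 CPM in MOP and at 13.2, 17.5 and 11.5 CPM in MODP. The lowest MOP library was above the highest MODP library by more than the spread within either group. The log2 fold change was 1.56 ± 0.17 (SE), with a 95% interval of 1.17 to 1.95, or 2.94-fold higher in MOP (edgeR adjusted p = 0.00071). It was the one member with a difference of at least 2-fold, and it ranged from log2 1.43 to 1.84 over the alternatives. Without replicate 2 of both groups it was at the upper end of that range. Replicate 2 had the most late neutrophil markers in each group. Its basophil and mast cell marker sum was the lowest of MOP (3152 CPM) and the highest of MODP (1086 CPM). The part of either marker set in the difference of Acss2 was not tested. Exons of Gss and Ggt7 on the other strand overlap 9.12% of its exon bases together with Acss2os, which was not analysed here. Ggt7 was at most 0.0822 CPM in any library, and Gss averaged 23.1 CPM in MOP and 17.2 CPM in MODP (log2 0.43). The strand setting of the counting is not stated in the sources used here, and the part of these overlaps in the counts of Acss2 was not tested.

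Acaca (ENSMUSG00000020532), the carboxylase that makes malonyl-CoA, stood at 103, 94.7 and 116 CPM in MOP and at 121, 119 and 143 CPM in MODP. The groups did not overlap, and Acaca was 1.22-fold lower in MOP (log2 -0.29 ± 0.09, SE, edgeR adjusted p = 0.047). Its call was lost without MOP replicate 1 or 2, without MODP libraries 1 or 3 and with replicate 2 left out of both groups (edgeR or DESeq2 adjusted p 0.0017 to 0.15 over the alternatives), and 56.8% of its 31-mers also occur in other genes, chiefly Gm5182. Fasn (ENSMUSG00000025153), the synthase that builds palmitate from malonyl-CoA, stood at 271, 251 and 317 CPM in MOP and at 369.8, 304 and 389 CPM in MODP. MOP replicate 3 overlapped with MODP replicate 2, and MOP was below MODP in all 3 pairs, with log2 differences of -0.45, -0.28 and -0.29. The log2 fold change of Fasn was -0.34 ± 0.12 (SE), with an edgeR adjusted p of 0.063, or 0.00095 with the replicate block.

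Scd2 (ENSMUSG00000025203), a stearoyl-CoA desaturase that puts the first double bond into saturated fatty acids, stood at 194, 189.5 and 242 CPM in MOP and at 319, 294 and 391 CPM in MODP. The groups did not overlap, and replicate 3 was the highest library of each. Scd2 was 1.61-fold lower in MOP (log2 -0.68 ± 0.14, SE, edgeR adjusted p = 0.012), and the pairs differed by log2 -0.72, -0.63 and -0.69. Scd1 (ENSMUSG00000037071), the paralog that dominates in liver and fat, stood at 7.58, 14.5 and 9.63 CPM in MOP and at 6.58, 14.3 and 2.46 CPM in MODP. Replicate 2 was the highest in both groups. These libraries also had the highest marker sums of their group for late neutrophils, B and plasma cells, and T and NK cells. The same held for the macrophage, erythroid and megakaryocyte, and stromal and endothelial markers. The part of any of these cells in the values of Scd1 was not tested. The groups overlapped, and the 95% interval of the log2 fold change of Scd1 ran from -1.19 to 2.13.

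Elovl5 (ENSMUSG00000032349), the elongase of polyunsaturated fatty acids, stood at 120.2, 118 and 128 CPM in MOP and at 173, 171 and 190.5 CPM in MODP. Every MOP library was well below every MODP library, and the pairs differed by log2 -0.52, -0.53 and -0.58. The log2 fold change was -0.54 ± 0.06 (SE), or 1.46-fold lower in MOP (edgeR adjusted p = 0.00063). Elovl6, which elongates palmitate, stood at 43.0, 38.6 and 44.1 CPM in MOP and at 44.8, 36.4 and 45.3 CPM in MODP (log2 -0.01 ± 0.10, SE). Elovl1 (ENSMUSG00000006390), the elongase of saturated very long chains, stood at 88.3, 84.0 and 89.4 CPM in MOP and at 74.7, 76.9 and 80.6 CPM in MODP. Its groups did not overlap, and its log2 fold change of 0.17 ± 0.06 (SE) had an edgeR adjusted p of 0.055, or 0.029 with the replicate block. The 3 elongases thus had estimates on both sides of 0, and only that of Elovl5 passed without the block.

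Fads1 (ENSMUSG00000010663), the delta-5 desaturase, stood at 42.6, 42.7 and 48.7 CPM in MOP and at 38.9, 33.2 and 37.7 CPM in MODP. The groups did not overlap, and Fads1 was 1.22-fold higher in MOP (log2 0.29 ± 0.09, SE, edgeR adjusted p = 0.041). That call was lost in each of the 6 fits without a library, with DESeq2, with upper-quartile scaling and without replicate 2 of both groups (edgeR or DESeq2 adjusted p 0.015 to 0.14 over the alternatives). Fads2, the delta-6 desaturase that acts before Elovl5 and Fads1 on the same chains, stood at 15.4, 19.1 and 17.4 CPM in MOP and at 18.5, 16.2 and 13.1 CPM in MODP, and the groups overlapped (log2 0.12 ± 0.15, SE).

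**Figure D3:**
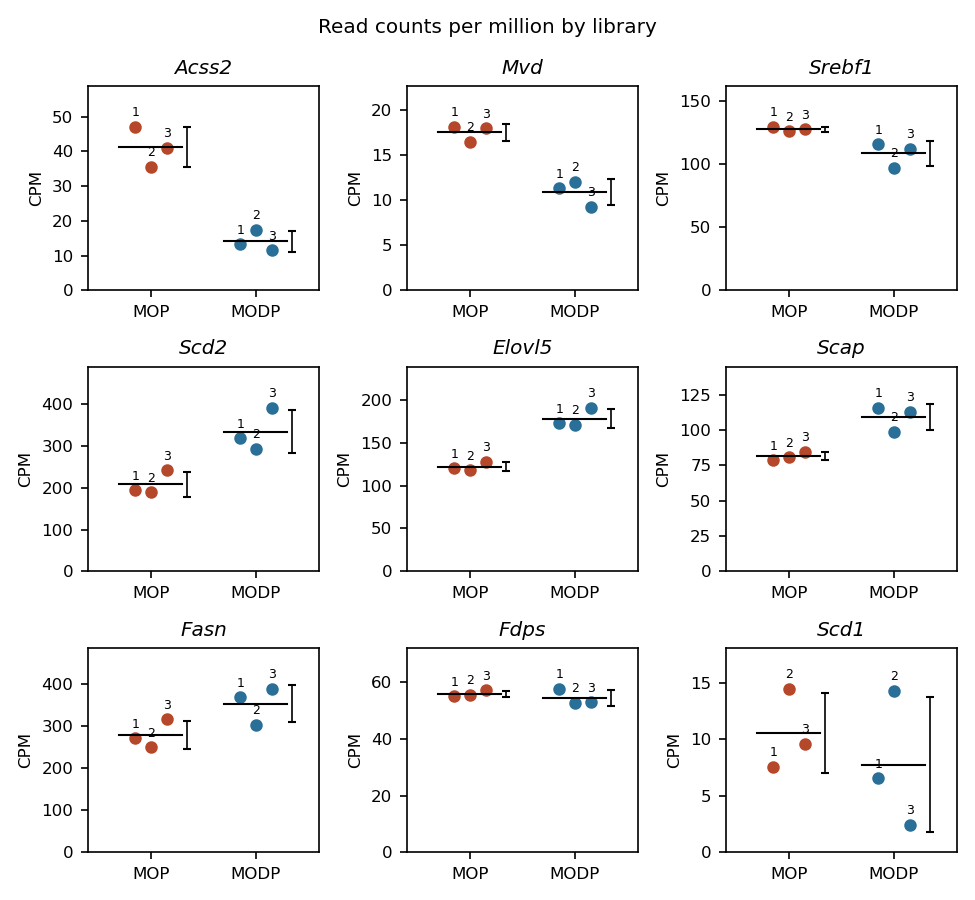
CPM in each library for 9 members, MOP left and MODP right; points are libraries with their replicate number, horizontal lines the group mean and bars its SD. Acss2, Mvd and Srebf1 are higher in MOP, Scd2, Elovl5 and Scap lower, and for Fasn, Fdps and Scd1 the groups overlap.

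Levels were compared between genes per length, as RPKM over the union exon length of GENCODE M21. On that length Scd2 led, at 38.2 RPKM in MOP and 61.3 RPKM in MODP, then Elovl5 at 34.6 and 50.5, Elovl1 at 32.0 and 28.4 and Fasn at 25.6 and 32.4 RPKM in the same order. In MOP, Scd2 and Elovl5 differed by less than the SD of Scd2. The highest sterol enzyme was Ebp, at 24.7 RPKM in MOP and 20.9 RPKM in MODP, and the lowest member was Idi1, at 0.920 and 0.867 RPKM. Acss2 was low despite its difference, at 4.06 RPKM in MOP and 1.39 RPKM in MODP. The order depended on the length used. Per base of the longest transcript Elovl1 led in MOP, with Elovl1 at 48.2, Elovl5 at 43.9 and Scd2 at 38.2 RPKM, and Elovl5 led in MODP, at 64.0 RPKM against 61.4 RPKM for Scd2. By the same measure Acss2 stood higher, at 11.4 RPKM in MOP and 3.90 RPKM in MODP, since its union exon length is 10163 bases and its longest transcript 3609.

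**Figure D4:**
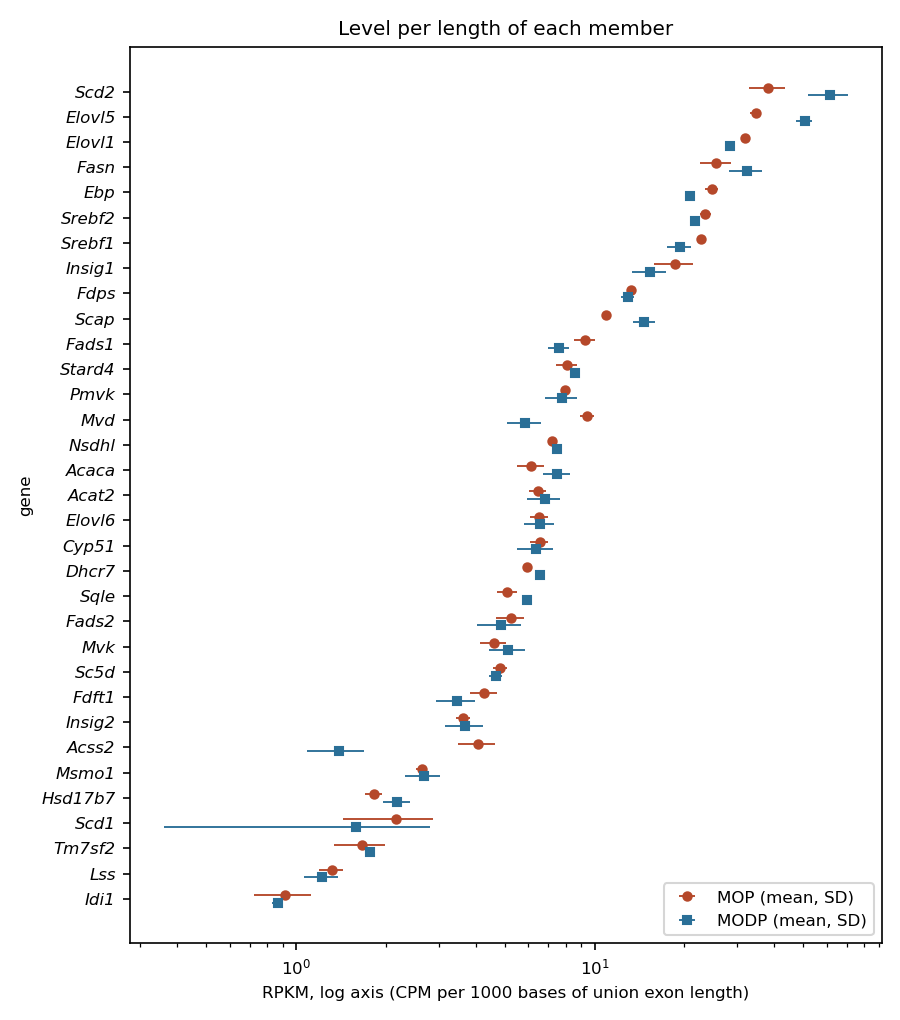
Mean RPKM (log axis) with SD for each member in MOP (circles) and MODP (squares), ordered by level. Scd2 and Elovl5 are at the top and Idi1 at the bottom, and those of Acss2 and Mvd lie apart between the groups.

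Ratios within a library do not depend on its scaling. The log2 ratio of length-scaled counts of Scd2 over Scd1 was 4.52, 3.55 and 4.49 in MOP and 5.44, 4.20 and 7.15 in MODP. Scd2 was the main form in every library. The groups overlapped, and the ratio was lower in MOP in all 3 pairs, with differences of -0.93, -0.65 and -2.66. For Insig1 over Insig2 it averaged 2.35 in MOP and 2.06 in MODP, and was higher in MOP in all 3 pairs, by 0.04, 0.52 and 0.30. It averaged 0.05 in MOP and 0.17 in MODP for Srebf2 over Srebf1, and -0.82 in MOP and -0.66 in MODP for Fads2 over Fads1, with pairs of either sign. By a two-sided exact permutation test over libraries, the smallest p was 0.3 for these 4 ratios (adjusted p = 0.4 for each), but this unpaired test of 3 against 3 libraries cannot go below 0.1 and so could not pass the threshold.

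Lists of adjoining pathways put these values beside their surroundings. These lists were chosen with earlier results of these data known, so their shares are no neutral comparison with all tested genes. Of 56 tested genes on 5 such lists, 9 were higher in MOP and 7 were lower (28.6% past the threshold, near the 31.2% of all tested genes). With the replicate block 10 were higher and 12 lower, and with upper-quartile scaling 8 were higher and 15 lower. The list of LXR genes and of sterol trafficking, storage and export had 11 tested genes, with a median log2 fold change of 0.28. Of these, 5 did not pass, the LXR genes Nr1h2 and Nr1h3 among them, and 6 were higher in MOP (54.5%, against 16.3% of all tested genes). They were Npc2 and Npc1, which carry cholesterol out of lysosomes, Lipa, the acid lipase that frees it from esters, Soat1, which esterifies it for storage, Nceh1, which hydrolyses the stored ester, and the exporter gene Abcg1. Abca1, the other main cholesterol exporter, had the largest estimate on the list and the opposite sign. It stood at 8.91, 14.2 and 9.94 CPM in MOP and at 14.7, 23.8 and 16.4 CPM in MODP, with no overlap (log2 -0.73 ± 0.24, SE, edgeR adjusted p = 0.053). Npc2 averaged 462 ± 8.33 CPM in MOP and 330.3 ± 11.8 CPM in MODP (log2 0.48 ± 0.05, SE, edgeR adjusted p = 0.00052). Soat1 averaged 152 ± 14.1 CPM in MOP and 95.5 ± 11.6 CPM in MODP (log2 0.67 ± 0.10, SE, edgeR adjusted p = 0.0026). The 8 macrophage markers summed to 127 to 234 CPM in MOP and 101 to 166 CPM in MODP, with 1 of 7 tested (Adgre1) higher in MOP, and their part in this list was not tested.

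The proteases that cleave SREBP, Mbtps1 and Mbtps2, had log2 fold changes of -0.01 and -0.20 and did not pass. On the isoprenoid branch list 2 of 10 passed, both lower (20%, against 14.9% of all tested genes): Coq2 of ubiquinone synthesis by log2 -0.34 ± 0.08 and the farnesyltransferase gene Fntb by -0.31 ± 0.07 (SE, edgeR adjusted p = 0.013 and 0.015). The mitochondrial fatty acid synthesis list had 2 of 7 lower (28.6%, against 14.9% of all tested genes) and 5 that did not pass, with a median log2 fold change of -0.30. Mcat, its malonyl transferase, averaged 20.8 ± 1.80 CPM in MOP and 28.6 ± 1.09 CPM in MODP (edgeR adjusted p = 0.0068).

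Of 21 tested genes for fatty acid supply, activation, elongation and lipid assembly, 2 were higher and 3 were lower. Together 23.8% of that list passed the threshold, below the 31.2% of all tested genes. Lpin1, a phosphatidate phosphatase of glycerolipid synthesis, averaged 29.0 ± 3.02 CPM in MOP and 17.3 ± 1.55 CPM in MODP (log2 0.75 ± 0.11, SE, edgeR adjusted p = 0.0019). Mid1ip1, an activator of acetyl-CoA carboxylase, was also higher, by log2 0.39 ± 0.08 (SE, edgeR adjusted p = 0.0069). The lower genes were Gpam, the first acyltransferase of glycerolipid synthesis, the ketoreductase gene Hsd17b12 of chain elongation and Slc25a1, the mitochondrial citrate carrier, with log2 fold changes of -0.44, -0.21 and -0.29. On the list of fatty acid oxidation 2 of 17 were higher and 4 were lower (35.3% past the threshold, near the 31.2% of all tested genes), among them Hadh and Acads at log2 -0.42 and -0.41.

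**Figure D5:**
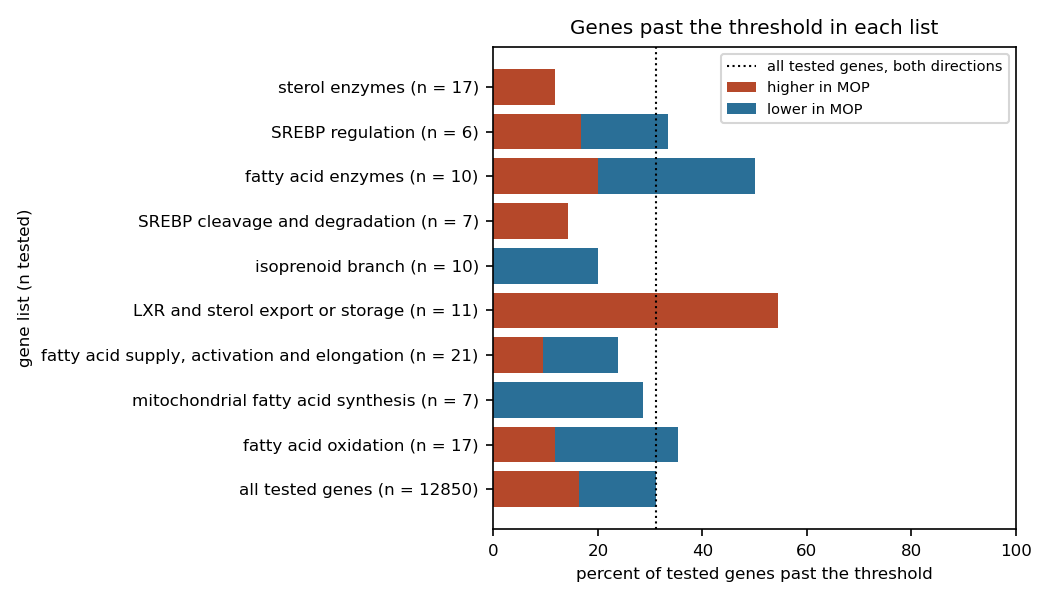
Percent of tested genes past the threshold in each list, split into higher in MOP and lower in MOP; the dotted line marks all tested genes (31.2%). The sterol enzymes lie below the line at 11.8%. The list of LXR and sterol export or storage has the longest bar, made of higher genes alone. Lists were chosen with earlier results of these data known.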

How the data were processed

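Counts per Ensembl gene in 6 libraries were used as deposited, whole numbers not normalized by the authors as far as the values show. TopHat 1.4 and HTSeq are named, per the submitters' processing notes. No source used here gives the genome build, annotation or strand setting. RNA was extracted with TriZol and made into TruSeq RNA libraries, per the labels' protocols.

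Symbols came from GENCODE M21 by identifier (20840 matched, 1431 did not). Counts were tested with edgeR 4.0.16 (R 4.3.3): filterByExpr, TMM, robust quasi-likelihood, group alone, Benjamini-Hochberg over 12850 genes, threshold 0.05. Fold changes are MOP over MODP, and 95% intervals come from the same fit. Genes with at least 50% of 31-mers shared with other genes are marked uncertain. The members and lists were chosen with earlier results of these data known, and some genes of these pathways are not reported here.

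Named genes were all members past the threshold, all SREBP regulation genes, the paralog pairs, the 6 most abundant members that did not pass, and up to 3 genes of each other list past the threshold; any other gene was named with its values already seen.

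The WT numbers are 1, 2 and 1 in the titles and 1, 2 and 3 in the column names. Over 9351 genes, deviations from group means correlated at 0.59, 0.61 and 0.51 for libraries with the same column number and at -0.45 to 0.05 for other pairs, so the column numbers were taken as pairs from the data. The deviations of a gene cancel out within a group, so negative values for other pairs follow in part from positive values for same-numbered ones. The block fits used these same data. Alternatives were DESeq2 1.42.0, upper-quartile scaling, no filter, 1 CPM in 3 libraries, both numbers as block, each library left out and replicate 2 of both groups left out.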

Additional observations from a re-analysis of the deposited data

How the results depend on the processing

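Over 13 alternative fits per member, 21 of 33 members kept their direction in all, and no called member changed sign. In all genes, 2095 were higher and 1913 lower, and 1281 to 2524 and 1036 to 2275 without 1 library. With the replicate block by column number 8 members were higher (2 SREBP regulation genes among them), 1 sterol enzyme was lower and 12 adjoining genes were lower; the block changed no call of a member other than those given above. With upper-quartile scaling, 2 members were higher (1 sterol enzyme, 0 SREBP regulation genes, 1 fatty acid enzyme), 6 were lower (1 sterol enzyme among them) and 15 adjoining genes were lower; the median of all genes moved to -0.06. The sterol and SREBP regulation sums then had log2 ratios of -0.018 and -0.020 in place of 0.036 and 0.035, and the sterol sum -0.0052 with totals alone. DESeq2 gave 1 higher fatty acid enzyme and 4 lower adjoining genes. Without replicate 2 of both groups 3 members were higher, 0 SREBP regulation genes and 1 fatty acid enzyme among them. Without 1 library, the counts were 2 to 5 higher and 2 to 5 lower members, 1 to 3 higher and 0 lower sterol enzymes, 0 to 1 higher SREBP regulation genes, 1 higher and 1 to 4 lower fatty acid enzymes, and 6 to 10 higher and 3 to 9 lower adjoining genes. Higher members numbered 2 without MOP replicate 2 or 3 or MODP replicate 3 and 3 without MOP or MODP replicate 1. Lower members numbered 2 without MOP replicate 1, and lower adjoining genes 3 without MOP replicate 1 or 2 or MODP replicate 1 and 4 without MODP replicate 3. The cause of these shifts was not tested, beyond fewer libraries in the fits that leave some out. Depth limits Idi1 and Scd1, with 31 to 52 and 35 to 226 reads per library.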
